A study of Mus musculus with 6 samples.

Results

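The actins and alpha-actinins studied here were 9 genes, chosen by name: the sarcomeric actins Acta1 and Actc1, the smooth muscle actin Acta2, the cytoplasmic actins Actb and Actg1, and the alpha-actinins Actn1, Actn2, Actn3 and Actn4. All 9 were among the 16759 genes of the expression table, and all 9 passed the filter on low values, which kept 10883 genes whose FPKM averaged 1 or more. Sequencing covered hind leg muscle RNA of 6 mice, 3 in the control group (Con) and 3 in the exercise group (EX), with 1 library each. All were male C57BL/6J mice that entered the experiment at an age of 8 weeks. The EX mice ran on a treadmill for 60 min a day, 5 days a week, for 6 weeks, each covering 22 km, and their tissue was taken 24 h after the last session, whereas the Con mice were not trained. The sources name no single hind leg muscle, and each library came from a small piece of tissue, so a difference in the part sampled and the training cannot be told apart.

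Actin monomers polymerise into filaments, and in striated muscle these form the thin filaments along which myosin pulls. Alpha-actinin is an antiparallel dimer that crosslinks actin filaments, and in the sarcomere it anchors thin filaments of opposite polarity at the Z-disc. Acta1 is the main actin of adult skeletal fibres, while Actc1, the main actin of the heart, is also the sarcomeric actin of embryonic skeletal muscle. Acta2 belongs to vascular smooth muscle and myofibroblasts, and Actb and Actg1 build the cytoskeleton of nearly every cell. Actn2 is present in all striated fibres and Actn3 in fast fibres, and Actn1 and Actn4 serve adhesions, stress fibres and the cell cortex outside the sarcomere.

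The actin genes are close in sequence, which matters for how reads are told apart. The 3 alpha-type actins each have a coding sequence of 1134 bases in the GENCODE M21 annotation of GRCm38. Their first 60 coding bases are shown here to make this likeness visible, in lower case with capitals where Actc1 or Acta2 has a base other than that of Acta1.
Acta1: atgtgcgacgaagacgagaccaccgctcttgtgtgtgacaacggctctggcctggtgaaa
Actc1: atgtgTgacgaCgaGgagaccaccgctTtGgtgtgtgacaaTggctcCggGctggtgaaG
Acta2: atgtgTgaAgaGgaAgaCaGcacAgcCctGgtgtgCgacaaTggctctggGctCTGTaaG
Within this stretch Actc1 differed from Acta1 at 9 bases and Acta2 at 17. Over the whole coding sequence Acta1 and Actc1 were identical at 86.2% of positions, and Actb and Actg1 at 88.7%. The longest stretch shared exactly by the transcripts of any pair of these 5 actins was 77 bases, between Acta1 and Actb, and between Acta1 and Actc1 it was 29 bases. No window of 150 bases, the length of 1 read, was shared by any pair. Among the alpha-actinins the coding identity lay between 73.9% for Actn3 and Actn4 and 78.8% for Actn1 and Actn4. The deposited estimated counts of all 9 genes were whole numbers in every library, although 4.18% to 4.44% of each library's values over all genes had decimals.

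The promoters of Acta1 and Actc1 are shown because both genes rose and because the actin promoters are the classic example of control by serum response factor, which binds the CArG box. Each sequence is the 250 bases before the start given by RefSeq for GRCm38.p6, on the minus strand, with the CArG box in capitals. They lie at chr8:123894776-123895025 for Acta1 and at chr2:114052876-114053125 for Actc1. The GENCODE M21 model of Actc1 begins further upstream, at chr2:114053548, so the Actc1 window lies inside that model.
Acta1: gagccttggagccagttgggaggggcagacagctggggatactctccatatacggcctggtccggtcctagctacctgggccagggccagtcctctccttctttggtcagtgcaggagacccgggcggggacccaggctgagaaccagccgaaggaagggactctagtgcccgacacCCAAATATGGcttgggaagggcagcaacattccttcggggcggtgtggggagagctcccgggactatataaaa
Actc1: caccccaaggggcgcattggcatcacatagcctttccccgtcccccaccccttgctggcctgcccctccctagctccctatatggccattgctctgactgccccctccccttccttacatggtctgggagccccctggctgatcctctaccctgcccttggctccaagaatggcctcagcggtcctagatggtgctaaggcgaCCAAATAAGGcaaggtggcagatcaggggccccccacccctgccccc
Of the 7 genes with a promoter entry, an exact CArG box was found on either strand for Acta1, starting 73 bases before the start, for Actc1 at 47 bases and for Actg1 at 90 bases, where it read CCATATATGG. No exact match was found in this window for Acta2, Actn1, Actn2 or Actn4, and near matches were not searched. Actb and Actn3 had no promoter entry. Of all 32851 promoters in the table, 1.47% held a CArG box in the same window. A match of letters is a description and no measure of binding.

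The libraries held between 13845362 and 16240431 counts on genes, of which 30.1% to 32.5% fell on its 20 most abundant genes. Changes are log2 fold changes of EX over Con with their standard error (SE), from edgeR's quasi-likelihood test on the counts after TMM scaling, with Benjamini-Hochberg adjustment over all 10883 genes tested and a threshold of 0.05. In this fit 17.9% of all genes passed the threshold, 9.11% as higher and 8.80% as lower in EX. The share of the called genes that were higher was 50.8% in this fit, 38.0% with totals that leave out the 20 most abundant genes, 28.4% with limma on log2(FPKM + 0.1) and 16.8% with limma on log2(TPM + 0.1), where the median of all genes lay at -0.09. Levels are given in TPM, which are per length and can be compared between genes. The 8 genes of skeletal muscle identity, from Dmd at 22.4 TPM to Ckm at 35848 TPM in Con, summed to between 40686 and 46489 TPM in Con and between 38610 and 42200 TPM in EX, most of it Ckm. None was called higher and 3 were called lower, Mb by -0.14, Ryr1 by -0.17 and Cacna1s by -0.13 on the log2 scale.

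All 9 genes passed the threshold, against 17.9% of all genes tested, and 6 were higher and 3 lower in EX. The 5 actins and Actn3 rose, while Actn2, Actn1 and Actn4 fell. Actc1 stood apart in size, with a 3.14-fold increase, and it ranked 14th of all genes tested by the size of its change. The other 8 changed by between -0.29 and 0.22 on the log2 scale. The scaled counts did not overlap between the groups for 8 of the 9 genes, Actn1 being the exception, and the same was true of 33.7% of all genes tested. Acta1, Actc1 and Actn3 passed the threshold under all 16 alternative settings. The other 6 lost it under at least 1, and their direction was the same throughout. Without EX replicate 3, the library with the largest effect on the count, 4 genes passed, namely Acta1, Actc1, Actg1 and Actn3.

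**Figure D1:**
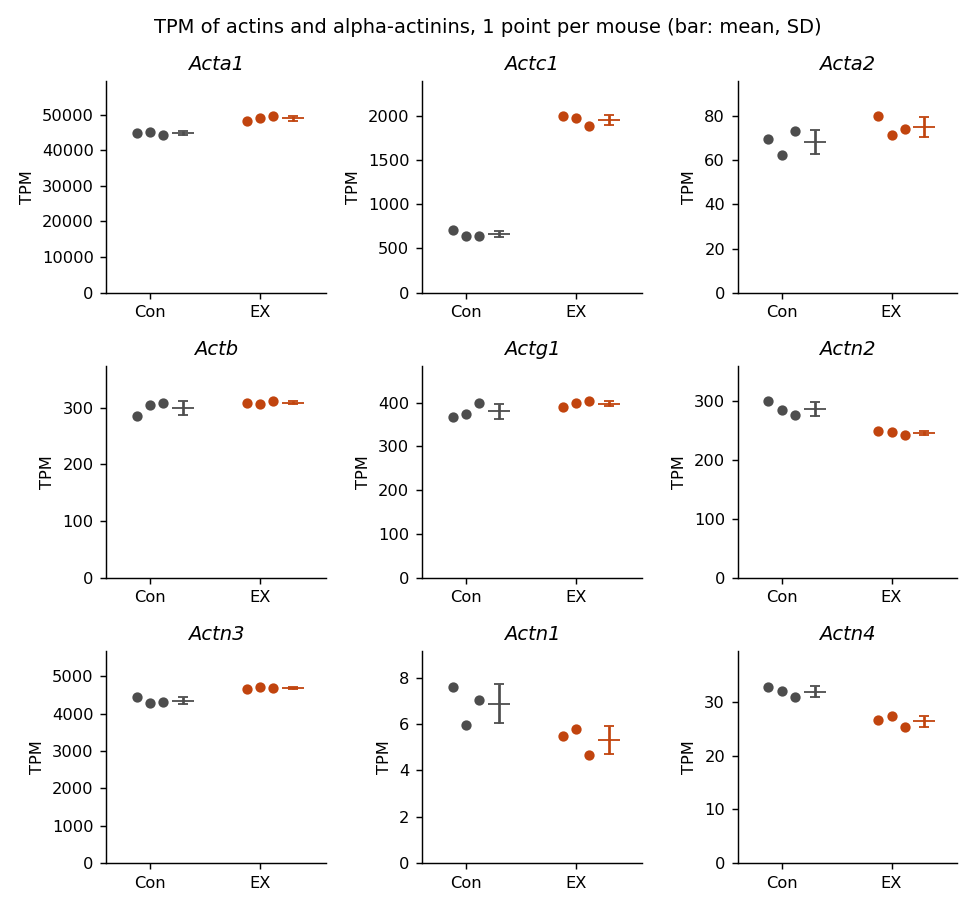
TPM (vertical axes, each from 0) of the 9 genes in the 3 Con and 3 EX mice, with 1 point per mouse and a bar for the mean and SD of each group. The Actc1 points of EX, between 1888 and 1995 TPM, lie far above those of Con, between 641.3 and 704.7 TPM, whereas the groups of the other genes lie close together.

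Actin was among the most abundant messages of this tissue. Acta1 ranked 1st of all genes by mean TPM, Actn3 19th and Actc1 83rd. Acta1 alone accounted for 3.51% to 4.05% of a library's counts. In Con the order of the mean levels was Acta1, Actn3, Actc1, Actg1, Actb, Actn2, Acta2, Actn4 and Actn1, from 44756 TPM to 6.86 TPM. The neighbours Actb and Actn2 overlapped in Con, with 286.2 to 308.0 TPM for Actb and 275.1 to 298.9 TPM for Actn2. In EX the order was the same, and these neighbours no longer overlapped.

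Actc1, the cardiac alpha-actin, was at 704.7, 644.2 and 641.3 TPM in Con replicates 1 to 3 and at 1995, 1972 and 1888 TPM in EX replicates 1 to 3. Its counts were 7626, 7809 and 7786 in Con and 25577, 25867 and 24387 in EX. The EX mice were all far above the Con mice, and the mice of each group lay close together. The mean was 663.4 ± 35.8 TPM (SD, n = 3) in Con and 1952 ± 56.0 TPM in EX. Its log2 fold change was 1.65 (SE 0.04 and adjusted p = 5.5e-22 with edgeR), with values from 1.56 to 1.70 under the alternative settings. Only 0.524% of all genes tested were called with a log2 change of at least 1 in size.

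Acta1, the skeletal alpha-actin, was at 44951, 45134 and 44183 TPM in the Con mice and at 48186, 49122 and 49528 TPM in the EX mice. Every EX value lay above every Con value, by a small margin relative to the level. The log2 fold change of Acta1 was 0.22 (SE 0.03 and adjusted p = 3.4e-06 with edgeR on scaled counts). It ranged from 0.13 to 0.25 under the alternative settings. The lowest value came from limma on log2(TPM + 0.1), with an adjusted p of 0.030. In absolute terms the mean gain of Acta1, 4189 TPM, was larger than that of Actc1, 1288 TPM.

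The summed TPM of the 5 actins was 46168 ± 492.3 (SD, n = 3) in Con and 51679 ± 644.0 in EX, and every EX sum lay above every Con sum.

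Most markers of slow fibres, and some of embryonic or regenerating fibres, were higher along with Actc1, and their part in its increase was not tested. In bulk tissue, more cells of a type and more RNA per cell cannot be told apart. Of 11 slow fibre markers tested, 9 were higher and 2 lower in EX, with a median log2 fold change of 1.13, where all genes tested had -0.00. Myh7, the slow myosin, was at 0.260 TPM in Con and 24.7 TPM in EX, and the slow troponins Tnni1, Tnnc1 and Tnnt1 rose by 4.84, 4.84 and 4.26 on the log2 scale, while the lower markers were Myoz2 and Pln, the regulator of the slow calcium pump. The summed level of the list was between 236.1 and 249.5 TPM in Con and between 540.7 and 577.0 TPM in EX. Of 11 embryonic and regenerating fibre markers, 6 were tested and 3 of these were higher in EX, among them the myogenic factor Myog at 0.99 and the embryonic myosin light chain Myl4 at 0.86 on the log2 scale, and the sum of all 11 was between 57.7 and 62.2 TPM in Con and between 84.5 and 87.9 TPM in EX. The tested markers that did not pass were Ncam1 at 0.21 (adjusted p = 0.18) and the satellite cell genes Myf5 at -0.02 (adjusted p = 0.96) and Pax7 at -0.08 (adjusted p = 0.72). Of the 5 members under the filter, 4 were called higher by edgeR with no filter, namely the embryonic myosin Myh3 at 2.95 (adjusted p = 1.5e-17), the perinatal myosin Myh8 at 2.10 (adjusted p = 9.5e-14), the fusion gene Mymk (adjusted p = 2.4e-08) and Chrng, the fetal acetylcholine receptor subunit (adjusted p = 1.7e-03). Mymk had 1, 0 and 1 counts in the Con mice against 24, 18 and 23 in the EX mice, and Chrng had 1, 0 and 0 against 4, 8 and 11. Of 9 heart muscle markers 6 were measured, with sums between 2.83 and 3.00 TPM in Con and between 3.29 and 5.97 TPM in EX. The tested one, Tnnt2, which embryonic skeletal muscle also expresses, was higher, and Myh6, Nppa and Tnni3 were near 0, at 0.203, 0 and 0.423 TPM in Con and 0.137, 0.0567 and 0.270 TPM in EX.

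Actb and Actg1, the cytoplasmic actins, rose by less than the sarcomeric actins. Actb was at 286.2, 305.0 and 308.0 TPM in Con and at 309.0, 306.6 and 311.3 TPM in EX. For Actg1 the levels were 366.9, 373.9 and 399.9 TPM in Con and 391.3, 400.1 and 402.8 TPM in EX. The groups overlapped in TPM for both genes, with Con replicate 3 reaching into the EX range, but not in scaled counts. In log2 fold change, Actb stood at 0.14 (SE 0.04, adjusted p = 8.4e-03) and Actg1 at 0.16 (SE 0.04, adjusted p = 2.7e-03) with edgeR's quasi-likelihood test. The values with limma on log2(TPM + 0.1) were 0.04 (adjusted p = 0.44) and 0.07 (adjusted p = 0.26), where all genes had a median of -0.09. Without EX replicate 3, the adjusted p of Actb was 0.051 with edgeR. Ratios within a library do not depend on the scaling between libraries. The ratio of Actb to Actg1 was 0.789 ± 0.0240 (SD, n = 3) in Con and 0.776 ± 0.0121 in EX, and the groups overlapped (exact permutation test, two-sided, p = 0.6, and 0.643 after adjustment over 15 ratios and shares). The sarcomeric actins Acta1 and Actc1 together were 66.9 ± 3.33 (SD, n = 3) times the sum of both cytoplasmic actins in Con and 72.0 ± 0.316 times in EX. Of 7 macrophage markers tested 6 were called higher, among them the complement genes C1qc at 1.26, C1qb at 1.03 and C1qa at 0.89 and the receptor gene Csf1r at 0.93 on the log2 scale. Of 8 fibroblast markers 4 were called higher and none lower, and the called ones were all collagens, with Col1a1 at 0.86, Col3a1 at 0.76, Col1a2 at 0.61 and Col6a3 at 0.19. The other fibroblast markers were not called and ranged from -0.14 for Pdgfra to 0.13 for Dpt. The macrophage markers summed to between 64.7 and 68.6 TPM in Con and between 111.8 and 120.2 TPM in EX, the fibroblast markers to between 541.4 and 578.4 TPM and between 590.1 and 618.8 TPM, and their part in the change of Actb and Actg1 was not tested.

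Acta2, the smooth muscle actin, was at 69.8, 62.4 and 73.2 TPM in Con and at 80.0, 71.3 and 74.4 TPM in EX. These groups overlapped, whereas the scaled counts did not. Acta2 changed by 0.15 on the log2 scale (SE 0.05, adjusted p = 0.034 with edgeR). The call was the least stable of the 9, passing in 5 of 16 alternatives, and the adjusted p was 0.23 without Con replicate 2, 0.072 without Con replicate 3, 0.12 without EX replicate 1, 0.075 without EX replicate 2 and 0.069 without EX replicate 3. Of 7 smooth muscle markers tested, none was called higher and 2 were called lower, with changes from -0.39 for Sncg (adjusted p = 0.099) to 0.44 for Cnn1 (adjusted p = 0.25). The called ones, named after their values were seen, were Myh11, the smooth muscle myosin, with a log2 change of -0.30 and Mylk, its light chain kinase, with -0.25. Actg2, the actin of visceral smooth muscle, was under the filter and had a log2 fold change of 1.59 in the fit with no filter (adjusted p = 0.031, edgeR). The sum of all 10 listed markers was between 147.3 and 149.8 TPM in Con and between 128.7 and 132.6 TPM in EX. Pericyte markers were lower in 7 of 8 cases, with sums between 417.2 and 440.4 TPM in Con and between 317.4 and 332.3 TPM in EX.

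Actn3 and Actn2, the alpha-actinins of the Z-disc, moved in opposite directions. Actn3 was at 4446, 4287 and 4302 TPM in Con and at 4666, 4722 and 4691 TPM in EX, with no overlap. Its log2 fold change was 0.20 (SE 0.03, adjusted p = 2.4e-05 with edgeR), close to that of Acta1. With limma on log2(TPM + 0.1), where all genes had a median of -0.09, Actn3 changed by 0.11 (adjusted p = 0.039). For Actn2 the levels were 298.9, 284.1 and 275.1 TPM in Con and 248.9, 246.3 and 241.8 TPM in EX, again with no overlap. Actn2 changed by -0.11 on the log2 scale (SE 0.04, adjusted p = 0.033 with edgeR). With limma on log2(TPM + 0.1) it changed by -0.22 (adjusted p = 7.0e-03). The edgeR call was lost, at adjusted p = 0.067, without Con replicate 1, 0.064 without Con replicate 2, 0.086 without EX replicate 1 and 0.19 without EX replicate 3.

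The ratio of Actn2 to Actn3 was 0.0672, 0.0663 and 0.0640 in the Con mice and 0.0533, 0.0522 and 0.0515 in the EX mice. All EX ratios lay below all Con ratios, and the difference was -0.33 on the log2 scale against a spread within groups of 0.03 (p = 0.1 by the same exact test, which with 3 mice against 3 cannot go lower, adjusted 0.125). Actn3 made up 93.0% ± 0.158 (SD, n = 3) of the TPM of the 4 alpha-actinins in Con and 94.4% ± 0.103 in EX. Of 11 fast fibre markers tested beside Actn3, 8 were higher and 1 lower, with a median of 0.16 and sums between 212952 and 213970 TPM in Con and between 223935 and 227747 TPM in EX. The slow fibre markers were mostly higher too, as given above, and the part of either in the change of Actn2 or Actn3 was not tested.

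Actn4 and Actn1, the alpha-actinins outside the sarcomere, were both lower in EX. Actn4 was at 33.0, 32.2 and 30.9 TPM in Con and at 26.8, 27.4 and 25.4 TPM in EX, without overlap. On the log2 scale Actn4 changed by -0.18 (SE 0.05, adjusted p = 9.8e-03 with edgeR), and without EX replicate 3 its adjusted p was 0.091. Actn1, the least abundant of the 9, was at 7.61, 5.95 and 7.02 TPM in Con and at 5.48, 5.78 and 4.64 TPM in EX. Its counts, 248, 217 and 256 in Con and 207, 228 and 179 in EX, overlapped. Actn1 changed by -0.29 (SE 0.10, adjusted p = 0.043 with edgeR), with an adjusted p of 0.14 with DESeq2, 0.16 without Con replicate 1, 0.085 without Con replicate 3, 0.095 without EX replicate 1 and 0.24 without EX replicate 3. The Actn1/Actn4 ratio was 0.214 ± 0.0255 (SD, n = 3) in Con and 0.200 ± 0.0148 in EX, and the groups overlapped (exact permutation test, two-sided, p = 0.5, adjusted 0.577). Its log2 difference of -0.10 moved to -0.20 without Con replicate 2, -0.05 without Con replicate 3, -0.04 without Con replicate 1 and -0.04 without EX replicate 3. Endothelial markers were lower in 6 of 10 cases and higher in 1, with sums between 456.9 and 468.0 TPM in Con and between 384.9 and 389.3 TPM in EX, and their part in the decrease of Actn1 and Actn4 was not tested.

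**Figure D2:**
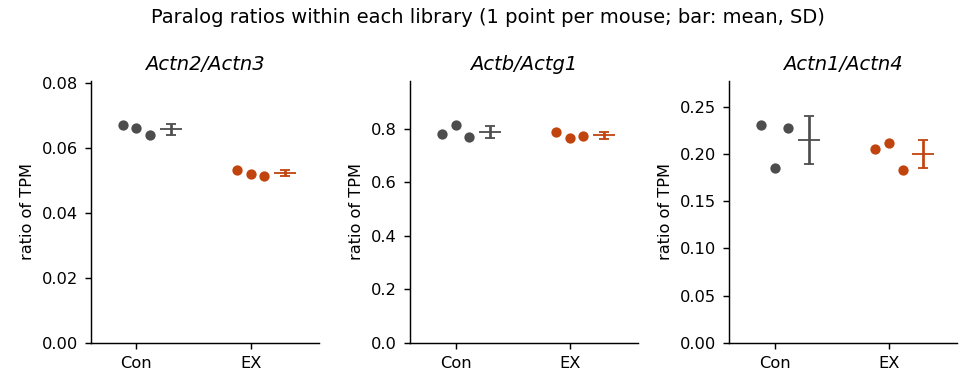
Ratio of TPM (vertical axes, each from 0) between paired genes within each library, with 1 point per mouse and a bar for the mean and SD. The Actn2/Actn3 ratio of EX lies between 0.0515 and 0.0533 and that of Con between 0.0640 and 0.0672, whereas the groups overlap for Actb/Actg1 and Actn1/Actn4.

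**Figure D3:**
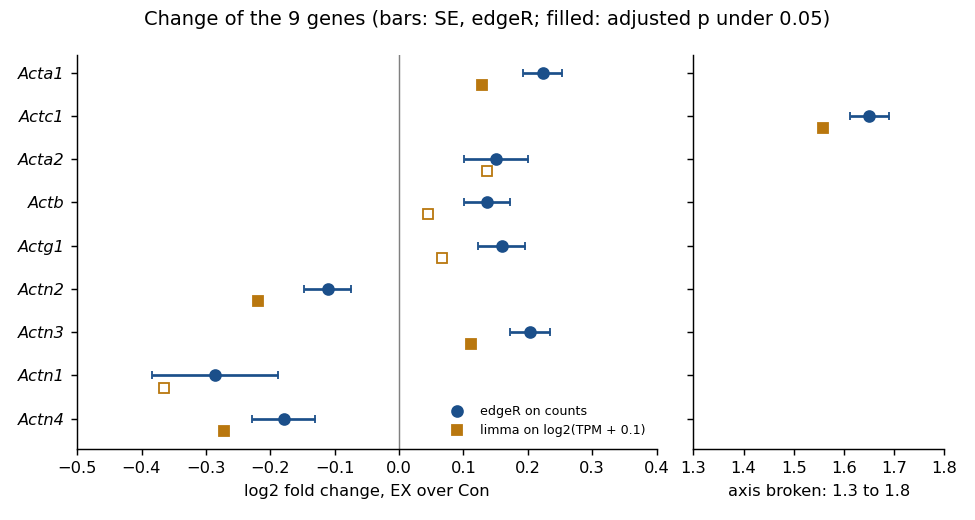
Log2 fold change of EX over Con (horizontal axis, broken between 0.4 and 1.3) for the 9 genes, with edgeR on counts as circles with SE bars and limma on log2(TPM + 0.1) as squares, filled where the adjusted p is under 0.05. Actc1 lies at 1.65 and 1.56, and the direction of each gene is the same in both fits, while Acta2, Actb, Actg1 and Actn1 pass the threshold with edgeR only.

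The genes that act on actin and alpha-actinin were followed in 6 lists, each read beside the 17.9% of all genes that passed, and 35 of their tested members passed the threshold. For thin filament assembly, which covers nebulin, the tropomodulins and leiomodins that cap or lengthen the filament and the proteins that place them, 4 of 17 tested genes were higher and 5 lower. The median was -0.02, close to that of all genes tested, and the called genes ranged from Nrap, a scaffold of nascent myofibrils, at -0.40 (SE 0.04, adjusted p = 3.2e-09) to Tmod4, the tropomodulin of fast fibres, at 0.16 (SE 0.03, adjusted p = 1.2e-03).

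For actin turnover, the factors that sever, cap, bind or nucleate filaments, 4 of 28 genes were higher and 1 lower, with a median of 0.05. The share called was like the 17.9% of all genes tested. Twf2, a capping protein of the twinfilin family, was the gene that fell, with a change of -0.37 (adjusted p = 1.8e-06). Coro1a, a coronin of white blood cells, rose by 0.62 (SE 0.21, adjusted p = 0.035), with 26, 32 and 22 counts in the Con mice against 37, 45 and 46 in the EX mice.

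For actin folding and maturation, 6 of 16 genes were higher and none lower, with a median of 0.11. All 6 were subunits of the CCT chaperonin, the ring that folds newly made actin, namely Tcp1, Cct3, Cct4, Cct5, Cct6a and Cct7, and they were singled out after their values were seen. The 8 subunits had changes between 0.07 and 0.23. The 6 subunits of prefoldin, which hands actin to the ring, had changes between -0.03 and 0.22, and none of them passed the threshold. These ranges overlap, and the difference between the families was not tested.

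Of 19 alpha-actinin partners at the Z-disc, 7 were higher and 5 lower, with a median of 0.06. Myoz2, the calsarcin of slow fibres, was counted 390, 354 and 376 times in the Con mice and 207, 209 and 248 times in the EX mice, a log2 change of -0.81 (SE 0.09, adjusted p = 8.7e-08). Pdlim1, a PDZ and LIM protein that binds alpha-actinin, changed by -0.50 (SE 0.07, adjusted p = 1.2e-05). At the other end Palld, an actin-bundling partner, rose by 0.33 (SE 0.04, adjusted p = 1.7e-06).

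Of 6 tested members of the list of serum response factor and its cofactors, 2 were higher and 1 lower, and these were named after their values were seen. Srf itself was at 32.4 ± 1.89 (SD, n = 3) TPM in Con and 31.7 ± 1.08 TPM in EX (adjusted p = 0.44, edgeR). Mrtfa, an actin-sensing coactivator of Srf, rose by 0.33 (SE 0.05, adjusted p = 5.1e-05), Abra, an actin-binding activator of this pathway, by 0.31 (SE 0.04, adjusted p = 1.5e-06), and Elk4, an Ets-family partner of Srf, fell by 0.35 (SE 0.11, adjusted p = 0.022) on the log2 scale. In the list of other actins, 7 actin-related genes were tested and none passed the threshold, and the largest change among these 7 was that of Actr6, a nuclear actin-related protein, at 0.29 (adjusted p = 0.064). The list does not hold every actin-related gene, and Actr3b, which is outside it and was looked up after the values were seen, rose by 0.31 (SE 0.06, adjusted p = 5.9e-04).

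**Figure D4:**
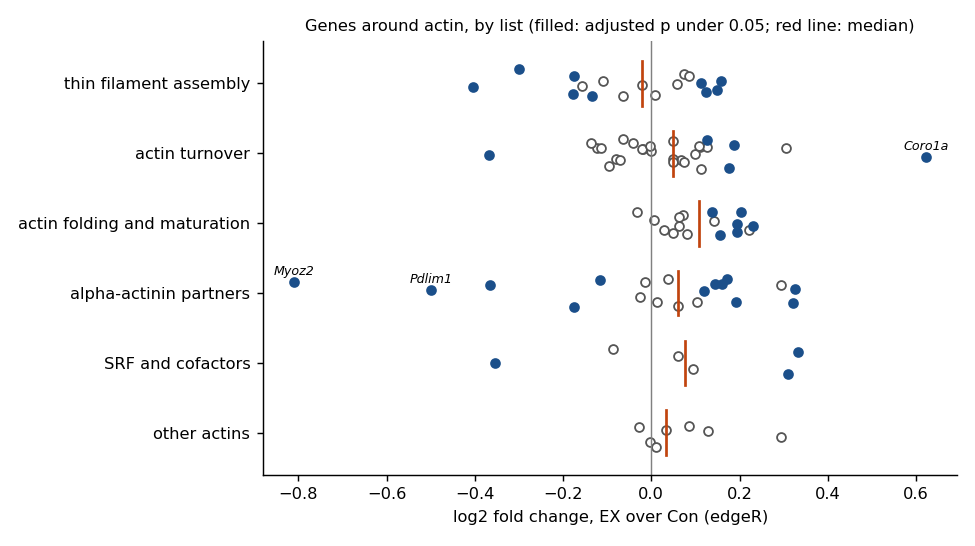
Log2 fold change of EX over Con (horizontal axis) for the tested members of 6 lists around actin, 1 point per gene, filled where the adjusted p of edgeR is under 0.05, with a line at each list's median. The medians lie between -0.02 and 0.11, and the points farthest out are Myoz2 at -0.81 and Coro1a at 0.62.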

How the data were processed

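Hind leg muscle RNA of 3 Con and 3 EX mice was sequenced as 150 bp paired-end reads on the DNBseq platform. The authors filtered the reads and aligned them with HISAT. The paper's methods name the GRCm39 assembly, whereas the submitters' processing notes name GRCm38.p6, cutadapt, featureCounts and MultiQC, so the build and the counting tool are uncertain. The deposited table holds an estimated count, an FPKM value and a TPM value per gene and library. The estimated counts were deposited without normalization, and the authors computed FPKM and TPM, which divide by length. Its 6 columns of group means were not used.

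Estimated counts were rounded and fitted with edgeR 4.0.16 (glmQLFit, glmQLFTest, TMM) in R 4.3.3 after removal of genes whose FPKM averaged under 1. SE is the size of the log2 fold change divided by the root of the F statistic. Alternatives used limma 3.58.1, DESeq2 1.42.0, other scalings, filters and left-out libraries. Ratios within a library were compared by exact permutation tests. One of them is not reported here. The fit was tested on simulated counts, where it recovered 56.0% of changes of 1.2-fold and 91.3% of changes of 1.5-fold. Of its calls there, 6.03% were false. The members and lists were chosen with earlier results of these data known, so their counts are descriptions. The genes named are the 9 members, list members called with a log2 change of at least 0.5 (at most 4 per list and direction), list members at the end of a range, and the 3 genes nearest to each member in centred log2 CPM. Abra, Mylk, Myh11, Col6a3, the CCT subunits, Srf, the skeletal muscle identity genes, Actg2, the other embryonic and regenerating fibre genes, the heart genes near 0 and Actr3b were named beyond this rule. Replicates of a group differed by more than counting noise. Depth allows 3 counts, or 0.187 to 0.214 CPM, where a count is 0.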

Additional observations from a re-analysis of the deposited data

How the results depend on the processing

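The 9 genes kept their direction in all alternatives that tested them, which were the median ratio and upper quartile scalings, totals without the 20 most abundant genes, no filter or a mean of 5 FPKM, DESeq2, limma on FPKM or TPM, the replicate block and each library left out. A mean of 5 FPKM removed Actn1, which left 8 genes. Of the 9 genes, 5 were called with limma on log2(FPKM + 0.1), log2(FPKM + 1) or log2(TPM + 0.1), namely Acta1, Actc1, Actn2, Actn3 and Actn4, and the cause was not tested. Leaving out 1 library gave between 4 and 8. Over all genes, DESeq2 called 1228 against 1949, and leaving out 1 library gave 1344 to 1857. The 6 lists around actin held 35 called genes, 23 with limma on log2(TPM + 0.1) and 26 to 35 when 1 library was left out. The log2 difference of Actb/Actg1, -0.02, ranged from -0.0397 without Con replicate 3 to 0.00195, a reversed sign, without Con replicate 2. That of Actn2/Actn3 ranged from -0.35 to -0.31, and that of Actn1/Actn4, -0.10, from -0.20 without Con replicate 2 to -0.04 without EX replicate 3. The sources name no pairing of same-numbered Con and EX mice. Their deviations from the group means had correlations of -0.08, -0.05 and -0.07, and none correlated best with its own number. With 3 libraries in a group, such correlations cannot show whether anything was shared. The replicate block gave 1782 genes, with all 9 members among them. Depth limits Actn1 most, with 179 to 256 counts in a library.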

Other observations

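Likeness of pattern was measured over the 6 libraries as the root mean square difference of log2 CPM after each gene was centred on its own mean, so that the split between Con and EX carries most of it. For Actc1 the nearest genes were Slc25a25, a mitochondrial ATP-Mg carrier, at a difference of 0.107, Lyve1, a receptor of lymphatic vessels and some macrophages, at 0.130 and Ostn, a peptide secreted by muscle, at 0.179. All were called higher in EX with edgeR, and their mean CPM in Con and EX were 62.7 and 174.9 for Slc25a25, 1.34 and 4.17 for Lyve1, and 3.14 and 8.30 for Ostn. The distances to Actc1 were larger than those found for the other 8 genes.

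The nearest genes to Acta1 were Rnh1, the ribonuclease inhibitor, at 0.00440, Hsp90ab1, a cytosolic chaperone, at 0.0115 and the collagen gene Col6a3 at 0.0178. Those of Actn3 were Tmem43 at 0.00911, Mlip at 0.0125 and Smyd1, a muscle methyltransferase, at 0.0129. For Actg1 they were Slc25a11, Fkbp4 and Jsrp1, between 0.0101 and 0.0141, and for Actb they were Riok3, Tmtc1 and Ipo7, between 0.0139 and 0.0143. Acta2 lay nearest to Errfi1, Zfp59 and Angptl2, none of which passed the threshold. Of the genes that fell, Actn2 lay nearest to Nek9, Vwa8 and Tgm2, Actn4 to D230025D16Rik, Slc12a9 and Yipf7, and Actn1 to Shfl, Rgs12 and Rbak.

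The length implied by each gene's count and FPKM was nearly the same in all libraries for 8 of the 9 genes, whose group means differed by between -0.75% and 1.15%. For Acta2 it was 1464, 1449 and 1316 bases in Con and 1300, 1371 and 1330 bases in EX, and the mean differed by -5.38%. Its values in TPM therefore hold a difference in assigned length as well as one in counts. Actg2, the actin of visceral smooth muscle, lay under the filter with 2, 4 and 5 counts in the Con mice against 19, 6 and 10 in the EX mice.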
